A study of Mus musculus with 2 samples.

Results

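The cells described here are dendritic cells marked by Cd209a in mouse skeletal muscle 7 days after ischemic injury. A cell barcode was counted as such a cell where it held at least 200 genes, at most 10% mitochondrial unique molecular identifiers (UMIs), at least 1 Cd209a UMI, at least 5 H2-Aa UMIs and at most 4 UMIs of C1qa, C1qb and C1qc together. Barcodes with any UMI of Ccr7, Xcr1, Clec9a, Pdgfra, Cdh5, Cd79a or Cd3e were left out. This gave 136 of 13837 kept barcodes in the WT library and 96 of 9164 in the Apoa1bp-/- library, or 232 of 23001 in all.

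Droplet single-cell RNA sequencing had been applied to the adductor muscle, 7 days after ligation of the femoral artery, of WT mice and of Apoa1bp-/- mice (genotype label AIBP-KO). Apoa1bp, whose current symbol is Naxe, encodes AIBP, an apolipoprotein A-I binding protein that also repairs hydrated NAD(P)H. Surgery was done on 4 mice of each genotype, the WT mice being control littermates. There was 1 library for each genotype, muscle of both genotypes had undergone the ligation, the label names no promoter or cell type for the loss of Apoa1bp, and strain, age and pooling of the mice are not given. No test across animals was therefore possible, and every interval below is an exact 95% interval that covers counting error only.

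Dendritic cells take up antigen in tissues and present it to T cells on MHC class II molecules. The conventional type 2 subset is marked in mice by C-type lectins such as Cd209a, Clec10a and Mgl2 and depends on the cytokine receptor Flt3, whereas the type 1 subset carries Xcr1 and Clec9a. In injured tissue, monocytes can also take on Cd209a and class II genes, so these markers alone do not separate the lineages.

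The label was checked against the markers that the rule had not used. Levels are CPM, the UMIs of a gene summed over the cells of a library and scaled to 1e+06 UMIs of those cells. Flt3, the receptor for the dendritic cell growth factor Flt3 ligand, stood at 75.3 CPM in the WT cells and 57.8 CPM in the Apoa1bp-/- cells, against 2.54 CPM in the other kept barcodes of either library. Plbd1, a phospholipase-like gene typical of dendritic cells and granulocytes, stood at 531 and 600 CPM, against 51.2 and 55.7 CPM. The lectin gene Mgl2 stood at 460 and 526 CPM, against 48.0 and 20.8 CPM. Each of these genes was thus higher in the selected cells than in the pooled rest of both libraries. In the 93 and 78 dendritic cells that held Xcr1, Clec9a or Ccr7, however, Flt3 (117 and 146 CPM) and Plbd1 (663 and 839 CPM) were higher still, and Mgl2 lower (52.5 and 23.4 CPM). Apoe, an abundant lipid carrier gene of macrophages, was at 564 and 670 CPM, against 31308 and 40706 CPM in macrophages gated by H2-Aa and at least 10 C1q UMIs. A UMI of Flt3 was found in 39 of 136 WT cells (28.7%) and 28 of 96 Apoa1bp-/- cells (29.2%). After every cell was thinned to 2000 UMIs these shares were 12.4% and 13.5%, against 0.118% of WT fibroblasts and 0 of 839 Apoa1bp-/- fibroblasts, which allows up to 0.439% (exact binomial). Flt3 and Zbtb46, another gene of conventional dendritic cells, were therefore detected in a minority of cells at this depth, and the lineage of the others was not tested.

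**Figure D1:**
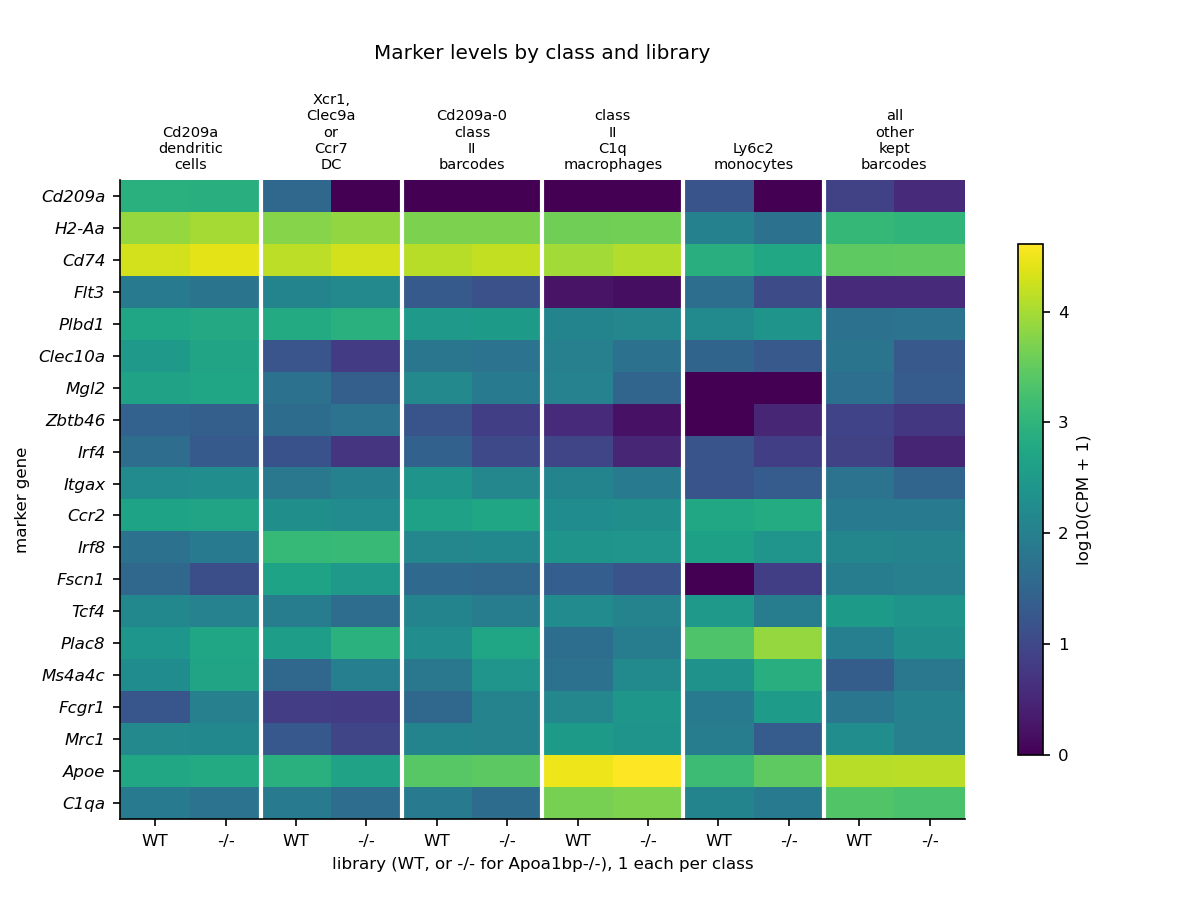
Levels of 20 marker genes as log10(CPM + 1), one column per class and library; colour gives the level of the UMIs summed over the class. The selected cells hold Flt3 at 75.3 and 57.8 CPM and less Apoe and C1qa than the macrophages, which hold Apoe at 31308 and 40706 CPM.

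Since Cd209a, H2-Aa and the C1q genes chose the cells, their levels are a description. Cd209a stood at 860 CPM in WT and 766 CPM in Apoa1bp-/- cells, and H2-Aa at 7691 and 9783 CPM. Exactly 1 Cd209a UMI was held by 38 WT and 27 Apoa1bp-/- cells, while 305 and 265 barcodes met every other condition with 0 Cd209a UMIs. At the H2-Aa threshold, 0 and 2 cells held exactly 5 UMIs, and 4 and 1 barcodes missed it with 4. At the C1q limit, 5 and 4 cells held exactly 4 UMIs, and 2 and 2 barcodes missed it with 5. With any C1q count over the limit, 88 WT barcodes (0.636% of kept) and 30 Apoa1bp-/- barcodes (0.327%) met every other condition. No C1q UMI at all was found in 51 and 41 cells. A barred gene removed a further 33 and 9 barcodes, most often Pdgfra (16 and 5).

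Against all other kept barcodes, 395 of 2154 genes of at least 50 CPM in these cells of both libraries (18.3%) were at least 1.5-fold higher in both. The cells were chosen on the same counts, so this is a description without a test. The genes that stood highest in both libraries included further parts of the class II machinery. H2-Oa, which encodes a subunit of the peptide-exchange modulator H2-O, was 31.1 times the level of other barcodes in WT and 41.5 times in Apoa1bp-/-. H2-Ob, its partner chain, was 15.1 and 18.3 times higher, and H2-DMb2, a chain of the peptide loader H2-M, 18.4 and 31.0 times. Other leading genes were lectin-like receptors and dendritic cell regulators. Klrb1b, an NK-type lectin receptor gene, was 33.2 and 34.4 times higher, and Klrd1, which encodes CD94, 23.7 and 20.6 times. Bcl11a, a transcription factor gene needed for dendritic cell and lymphoid development, was 30.6 and 28.3 times higher. The remaining leaders were Ltb4r1, the leukotriene B4 receptor gene (14 and 13.7 times), Tnip3, an NF-kB feedback gene (14.3 and 13.7), Napsa, an aspartic protease gene (14.4 and 12.3), Cd244a (13 and 13), Tnfsf9 (12.7 and 12.1), Itgb7 (10.8 and 13.8), Mcemp1 (22.5 and 15.5), Rnase6 (9.46 and 12.1), Clec4b1 (9.62 and 10.6) and Krt80 (9.16 and 12.6). Ccl17, a chemokine gene of type 2 dendritic cells, was 20.4 and 30.4 times higher, but 69.0% of its UMIs in the Apoa1bp-/- cells came from 1 barcode. For all 20 leading genes the fold was smaller against the barcodes that met every other condition with 0 Cd209a UMIs. Those barcodes held Ltb4r1 at 116 and 87.1 CPM, against 145 and 133 CPM here. They held Tnip3 at 172 and 123 CPM, against 207 and 165 CPM, and Clec4b1 at 288 and 228 CPM, against 342 and 299 CPM. Some of these leaders were higher in the dendritic cells with Xcr1, Clec9a or Ccr7, where H2-Ob was at 146 and 123 CPM against 63.7 and 80.0 CPM here, Rnase6 at 177 and 338 CPM against 91.2 and 203 CPM, and Ccl17 at 95.3 and 109 CPM against 65.1 and 62.2 CPM.

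The cells held 690923 UMIs in WT and 674721 in Apoa1bp-/-, with medians of 4372 and 6410 UMIs per cell, so the Apoa1bp-/- cells were sequenced more deeply. Naxe, the deleted gene, had 23 UMIs (33.3 CPM) in WT and 0 UMIs in Apoa1bp-/- cells, at least 7.49-fold lower against a floor of 3 counts, and 50.4 and 0 CPM in the other barcodes. Naxd, which encodes the partner enzyme of the repair pathway, had 16 and 20 UMIs. The libraries shared 43 barcode sequences, none of them in both sets of cells, and Scrublet called 8 WT and 4 Apoa1bp-/- cells doublets. Fibroblast markers summed to 2754 CPM in WT and 290 CPM in Apoa1bp-/- cells, with 44.6% of the WT sum in 1 barcode, and neutrophil markers to 709 and 234 CPM, with 99.0% and 88.0% in 1 barcode each. Monocyte markers summed to 533 and 1190 CPM and macrophage markers to 1197 and 1269 CPM. Markers of T cells (4.34 and 17.8 CPM), NK cells (40.5 and 11.9 CPM), B cells (76.7 and 110 CPM), endothelium (42.0 and 66.7 CPM), muscle (210 and 239 CPM), mast cells (26.1 and 16.3 CPM), type 1 dendritic cells (190 and 206 CPM), mature dendritic cells (62.2 and 22.2 CPM) and plasmacytoid dendritic cells (175 and 145 CPM) summed to the values in brackets.

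Under this rule the cells made up similar shares of the libraries. They were 0.983% of kept WT barcodes (exact 95% interval 0.825 to 1.16%) and 1.05% of kept Apoa1bp-/- barcodes (0.849 to 1.28%), a ratio of 1.07 (0.812 to 1.39). Among barcodes that passed the H2-Aa threshold and held no barred gene, they were 4.52% of 3008 and 4.85% of 1979. Among barcodes with a UMI of Ptprc, the pan-leukocyte gene, they were 2.08% of 6047 and 2.02% of 4456. After every barcode was thinned to 2000 UMIs, 115 and 66 barcodes met the rule, a ratio of 0.825. The counting interval of each unthinned ratio covers 1, which does not show that the shares were equal. No interval was computed for the thinned ratio. The shares leave out the 88 WT (0.636%) and 30 Apoa1bp-/- barcodes (0.327%) that only the C1q limit removed. That limit thus took a larger part of the WT library, and no share was computed with them.

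Between the genotypes, 5789 genes reached 20 CPM in the cells of either library. At least 1.5-fold higher in Apoa1bp-/- were 860 (14.9%) and at least 1.5-fold lower were 998 (17.2%), and the median log2 ratio over all was -0.02. Ratios are Apoa1bp-/- over WT throughout.

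The genes that stood out most as a group were those induced by type I interferon. Of 35 such genes tested, 31 were at least 1.5-fold higher in the Apoa1bp-/- cells, against the 14.9% of all genes, and 0 were as much lower. Their median log2 ratio was 1.55. Isg15, a ubiquitin-like modifier, stood at 36.2 CPM in WT and 276 CPM in Apoa1bp-/- cells, a ratio of 7.62 (5.00 to 12.1), with UMIs in 11 of 136 and 47 of 96 cells. Irf7, the transcription factor that amplifies the interferon response, was at 17.4 and 130 CPM, a ratio of 7.51 (4.09 to 15.1). Usp18, the protease that removes the Isg15 modifier and dampens receptor signalling, had 1 and 21 UMIs, a ratio of 21.5 with a wide interval (3.46 to 889). Rtp4, a chaperone of cell surface receptors, was at 20.3 and 116 CPM, a ratio of 5.71 (3.21 to 10.9). Ifit3, which blocks viral RNA use, was at 11.6 and 75.6 CPM, a ratio of 6.53 (3.08 to 15.9). Ifi213 and Ifi204, of the family of intracellular DNA sensors on mouse chromosome 1, had ratios of 5.69 (2.77 to 13.2) and 4.41 (2.38 to 8.79), and reads may be shared among these near-identical genes. The most abundant genes of the list had smaller ratios. Ifitm3, which blocks viral entry, was at 2573 and 3493 CPM, a ratio of 1.36 (1.28 to 1.44), and Ifi27l2a at 1088 and 2125 CPM, a ratio of 1.95 (1.79 to 2.14). Cxcl10, a chemokine gene, had a ratio of 3.88 (2.45 to 6.37), but its UMIs lay in 6 WT and 8 Apoa1bp-/- cells and 60.4% of the Apoa1bp-/- UMIs came from 1 of them.

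The start regions of these genes are shown because interferon-activated factors bind GAAA repeats spaced by a pair of bases. The letters GAAANNGAAA were searched on both strands of RefSeq windows from 250 bases before to 50 bases after each start (build GRCm38.p6), overlapping matches included. They occurred in 1131 of 32851 windows (3.44%) and, of the 27 tested interferon genes in the table, in at least 1 window of 17 (63.0%), against 3.99% of all 27025 genes. The list was compiled from known interferon targets, so this share is a description, and a match is neither a bound site nor a cause. Capitals mark the matching letters in the windows of Isg15 (chr4:156200769-156201068, minus strand, 3 overlapping matches), Ifit3 (chr19:34583279-34583578, plus strand, 2 matches) and Ifi213 (chr1:173599223-173599522, minus strand, 1 match), 3 of the genes with the highest ratios, printed 5' to 3' on the gene's strand.
Isg15: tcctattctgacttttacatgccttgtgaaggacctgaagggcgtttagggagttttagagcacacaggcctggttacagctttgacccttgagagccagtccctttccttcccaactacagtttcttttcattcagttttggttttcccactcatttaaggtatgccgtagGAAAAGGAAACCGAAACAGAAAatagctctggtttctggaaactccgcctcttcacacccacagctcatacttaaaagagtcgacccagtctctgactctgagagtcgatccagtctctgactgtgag
Ifit3: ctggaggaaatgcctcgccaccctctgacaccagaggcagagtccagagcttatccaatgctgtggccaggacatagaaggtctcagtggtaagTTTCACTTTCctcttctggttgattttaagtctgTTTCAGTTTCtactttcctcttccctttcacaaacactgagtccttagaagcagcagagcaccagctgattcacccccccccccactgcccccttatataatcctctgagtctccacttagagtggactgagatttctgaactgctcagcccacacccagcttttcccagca
Ifi213: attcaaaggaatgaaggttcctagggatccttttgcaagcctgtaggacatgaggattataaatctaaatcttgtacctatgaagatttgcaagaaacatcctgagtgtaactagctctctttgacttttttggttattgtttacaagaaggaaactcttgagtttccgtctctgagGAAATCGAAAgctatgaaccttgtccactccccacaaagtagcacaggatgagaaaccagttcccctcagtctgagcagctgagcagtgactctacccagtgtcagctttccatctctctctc

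The same genes were higher in other classes of the Apoa1bp-/- library. The list's median log2 ratio was 1.31 in the barcodes that met every condition but had 0 Cd209a UMIs, 0.85 in the C1q macrophages with class II, 0.62 in the dendritic cells with Xcr1, Clec9a or Ccr7 and 0.84 in all other kept barcodes. The ratio of Isg15 was 5.2 in the Cd209a-0 barcodes and 2.94 in the macrophages, that of Ifit3 5.27 and 2.61, and that of Rtp4 4.03 and 2.98. The differences between classes were not tested. After thinning to 2000 UMIs, Isg15 was detected in 4.96% of 121 WT and 28.1% of 89 Apoa1bp-/- cells, beside 6.09% and 22.6% of fibroblasts, a class that can express it too.

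**Figure D2:**
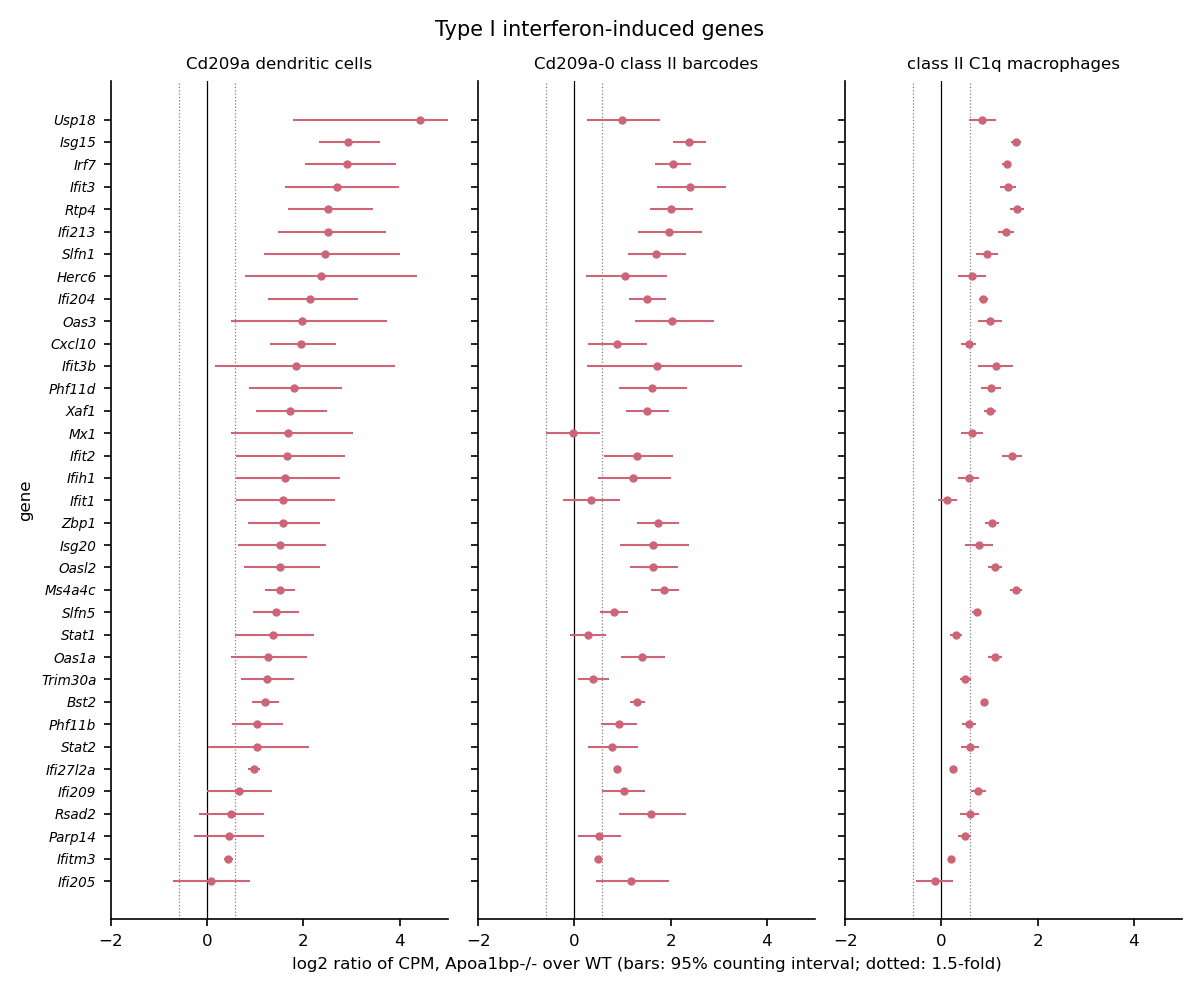
Log2 ratios of CPM (Apoa1bp-/- over WT) for the 35 interferon-induced genes tested, with 95% counting intervals, in the Cd209a dendritic cells and 2 neighbouring classes; the interval of Usp18 runs past the axis. In the Cd209a dendritic cells 31 genes lie beyond the upper dotted line at 1.5-fold and none beyond the lower one.

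Within each library the interferon signal varied from cell to cell. The interferon list took a median of 0.396% of a WT cell's UMIs (range 0 to 2.00%) and 0.712% of an Apoa1bp-/- cell's UMIs (0.145 to 5.24%), so the ranges overlapped widely. At 2000 UMIs per cell, a median of 3 list genes was detected in WT (1 to 12) and 5 in Apoa1bp-/- (1 to 28), with at least 3 in 87 of 121 and 80 of 89 cells. No background was measured for this number, and Ifitm3 alone was detected in 94.9% and 97.1% of thinned fibroblasts. The highest cells were in the Apoa1bp-/- library.

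Fcgr1, which encodes the high-affinity IgG receptor and is used to mark monocyte-derived cells and macrophages, divided the cells further. It stood at 15.9 and 99.3 CPM, a ratio of 6.24 (3.27 to 13.1), with a UMI in 10 of 136 and 35 of 96 cells. The rise was not particular to these cells. The ratio of Fcgr1 was 3.46 (2.59 to 4.68) in the Cd209a-0 barcodes, 2.04 (1.93 to 2.16) in the macrophages and 1.69 in all other kept barcodes. In the other dendritic cells it was 0.944 (0.160 to 6.45). After thinning it was detected in 0.826% and 22.5% of the cells and in 1.42% and 0.715% of fibroblasts, so the WT share lay at the level of fibroblasts, which should lack the gene, and the Apoa1bp-/- share above it. In the Apoa1bp-/- library the interferon list took 1.06% of the UMIs of cells with Fcgr1 (median, n = 35) and 0.575% of those without (n = 61). In WT these medians were 0.678% (n = 10) and 0.391% (n = 126). The list's median log2 ratio was 0.89 among cells with Fcgr1 and 0.99 among cells without. Fcgr1 itself differed between the libraries, so the division gives values only. Cells with Fcgr1 were also deeper, at medians of 6859 against 4203.5 UMIs in WT and 7749 against 5667 UMIs in Apoa1bp-/-. With Fcgr1, Isg15 had a ratio of 8.53 (3.26 to 31.7) and Rtp4 one of 1.81 (0.771 to 5.17). Without it the values were Isg15 at 33.8 and 101 CPM, a ratio of 3.0 (1.72 to 5.39), and Irf7 at 16.1 and 74.8 CPM, a ratio of 4.65 (2.19 to 10.7). Without any cell holding Fcgr1 or Ly6c2, the log2 ratio of Isg15 was 1.06 instead of 2.90 and the list's median 0.86. Among the 39 and 28 cells with Flt3 the list's median was 2.88. The medians of 0.86 and 2.88 cover the list genes that reached 20 CPM in the cells counted. Those genes may differ from the 35 behind 0.89 and 0.99, so the medians are not directly comparable. The summed monocyte markers given above, at 533 and 1190 CPM, were also higher in the Apoa1bp-/- cells, and their part in the result was not tested.

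**Figure D3:**
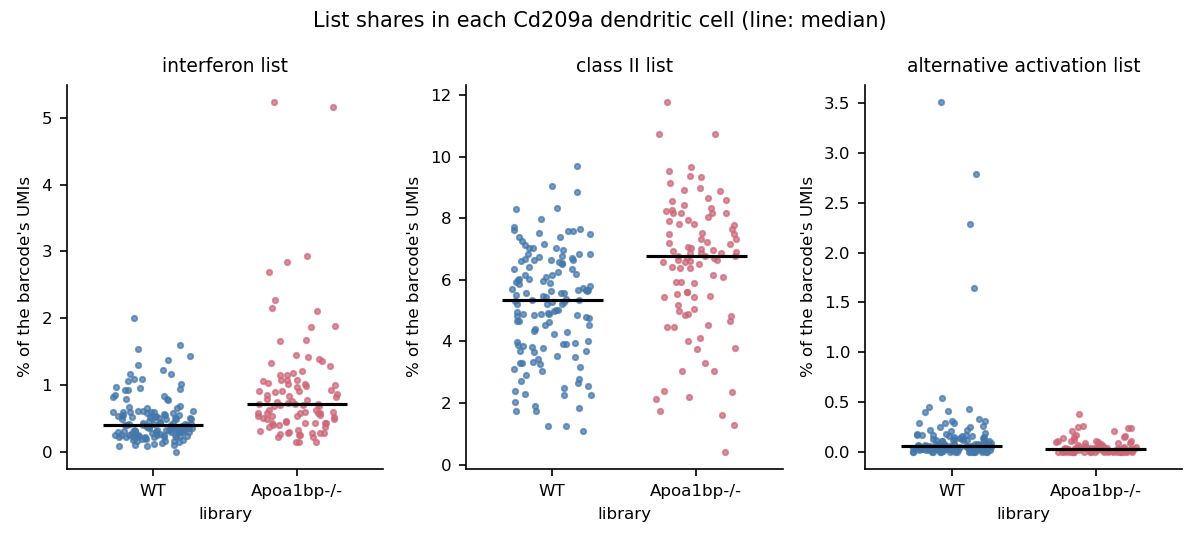
Share of each cell's UMIs in 3 gene lists, by library; each point is 1 of the 136 WT or 96 Apoa1bp-/- cells and the line is the median. The interferon list has medians of 0.396% and 0.712% and the class II list, without H2-Aa, medians of 5.33% and 6.76%, with overlapping ranges.

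Class II presentation genes were slightly higher in the Apoa1bp-/- cells. Of 15 genes tested besides H2-Aa, 6 were at least 1.5-fold higher (14.9% of all genes were) and 0 lower, 12 had counting intervals above 1, and the median log2 ratio was 0.44. Cd74, the invariant chain and the most abundant of them, stood at 19719 CPM in WT and 26827 CPM in Apoa1bp-/-, a ratio of 1.36 (1.33 to 1.39). H2-Eb1, a class II beta chain gene, was at 11098 and 14279 CPM, a ratio of 1.29 (1.25 to 1.33). The larger ratios belonged to genes that process antigen or control the locus. Ctss, the cathepsin that trims the invariant chain, was at 873 and 1642 CPM, a ratio of 1.88 (1.70 to 2.08). Ctsz, another cathepsin gene, had a ratio of 1.64 (1.43 to 1.88), Lgmn, the asparaginyl protease gene, 1.63 (1.25 to 2.14), and Ifi30, a thiol reductase gene, 1.5 (1.37 to 1.65). Rfxap, part of the complex that binds class II promoters, had 15 and 30 UMIs, a ratio of 2.05 (1.07 to 4.10). The modulators H2-Oa and H2-DMb2 had ratios of 1.55 (1.13 to 2.15) and 1.41 (1.02 to 1.97), while the interval of H2-Ob covered 1 (1.26, 0.828 to 1.92).

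The H2-Aa threshold chose cells on a gene of the same locus, so a selection on class II level entered both libraries. The list's median was 0.36 when every barcode was thinned to 2000 UMIs before the rule was applied and 0.19 among cells with Flt3. Per cell, the class II list took a median of 5.33% of UMIs in WT (1.09 to 9.69%) and 6.76% in Apoa1bp-/- (0.421 to 11.8%). The median of the list was -0.03 in the Cd209a-0 barcodes, 0.11 in the macrophages and 0.39 in the dendritic cells with Xcr1, Clec9a or Ccr7, whose Cd74 went from 13898 to 19369 CPM. In the Cd209a-0 barcodes H2-DMb2 was lower (0.54) while it was higher in the Cd209a dendritic cells (1.41), a difference that was not tested.

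**Figure D4:**
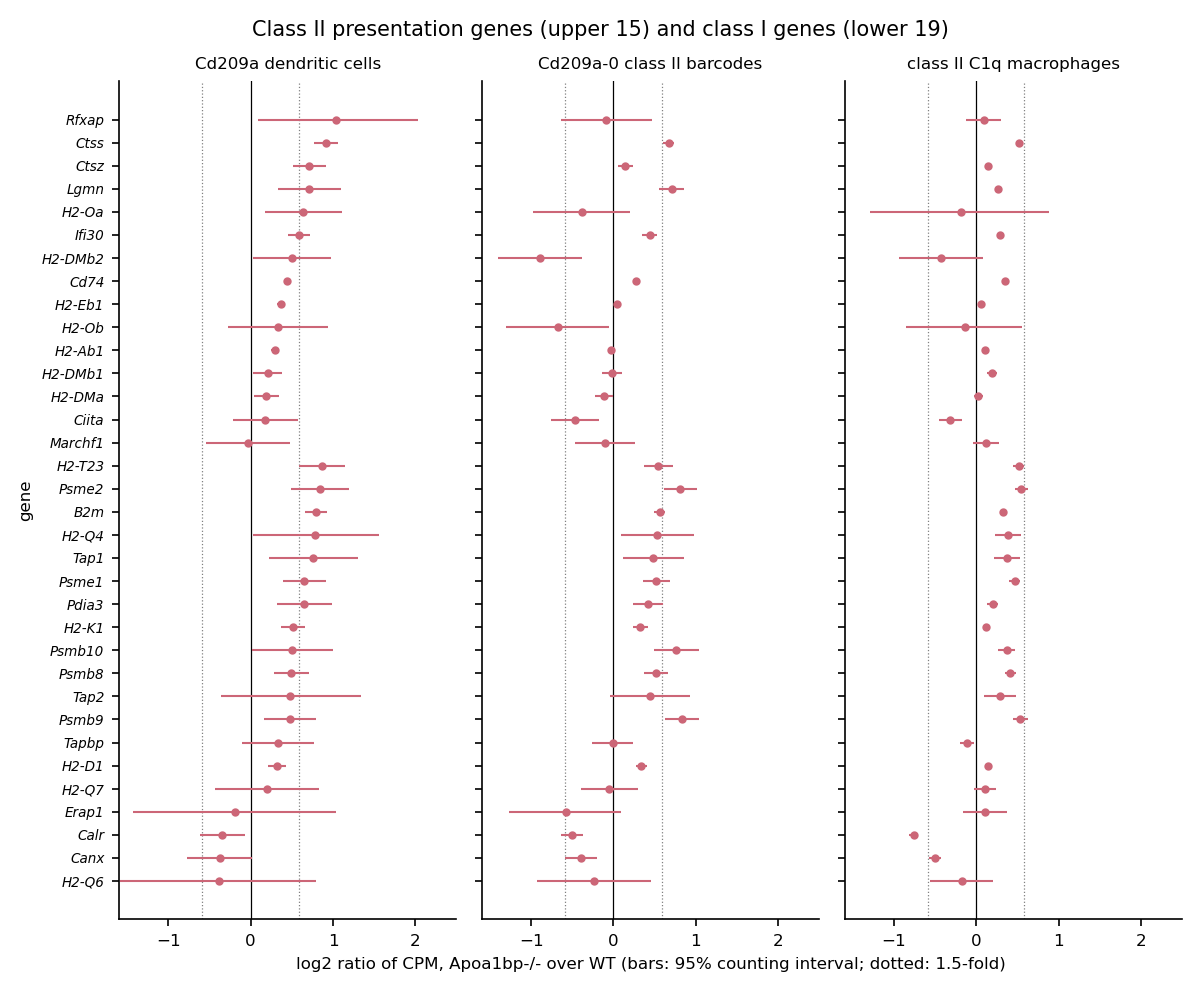
Log2 ratios of CPM (Apoa1bp-/- over WT) with 95% counting intervals for 15 class II presentation genes and 19 class I genes, in 3 classes; the interval of H2-Q6 runs past the axis. In the Cd209a dendritic cells 12 of the 15 class II intervals lie above 0, and Cd74 sits at a log2 ratio of 0.44.

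Class I genes and the immunoproteasome, which many interferons induce, were also higher. Of 19 tested, 7 were at least 1.5-fold higher (14.9% of all genes were) and 0 lower. The median log2 ratio was 0.49, beside 0.44 in the Cd209a-0 barcodes and 0.29 in the macrophages. B2m, the class I light chain gene, was at 1080 and 1875 CPM, a ratio of 1.74 (1.58 to 1.90). H2-T23, which encodes the ligand of the Klrd1 receptor complex, had a ratio of 1.83 (1.5 to 2.22), Psme2, a proteasome activator gene, 1.79 (1.40 to 2.29), H2-Q4 1.72 (1.02 to 2.95) and H2-D1 1.25 (1.16 to 1.35). Class I genes are close copies of each other, and reads could be divided among them.

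Of 12 costimulatory and checkpoint ligand genes tested, 6 were at least 1.5-fold higher (14.9% of all genes were) and 0 lower. Their median log2 ratio was 0.62, beside 0.28 in the Cd209a-0 barcodes and 0.32 in the macrophages. It was 0.17 in the other dendritic cells and 0.56 in the Ly6c2 monocytes, and the differences between classes were not tested. That monocyte gate held only 18 WT and 88 Apoa1bp-/- barcodes, and its make-up differed between the libraries. In it T cell markers summed to 890 and 375 CPM, NK markers to 950 and 450 CPM and fibroblast markers to 6321 and 1624 CPM. Monocyte markers summed to 5068 and 12862 CPM there, so its ratios compare unlike mixtures. Cd86, the costimulatory ligand of CD28, had 22 UMIs in WT and 44 in Apoa1bp-/- (31.8 and 65.2 CPM), a ratio of 2.05 (1.20 to 3.59). Havcr2, which encodes the inhibitory receptor TIM-3, was at 15.9 and 51.9 CPM, a ratio of 3.26 (1.62 to 7.11), and Lgals9, which encodes its ligand galectin-9, at 28.9 and 74.1 CPM, a ratio of 2.56 (1.5 to 4.54). Pvr, a ligand of TIGIT, had a ratio of 2.11 (1.13 to 4.11). The abundant Cd48 and Tnfsf9 had ratios of 1.24 (1.00 to 1.53) and 1.22 (0.912 to 1.65). Of 6 genes induced by interferon gamma, 5 were at least 1.5-fold higher (14.9% of all genes were) but only 2 had counting intervals above 1, among them the transcription factor gene Irf1, which had 22 and 41 UMIs, a ratio of 1.91 (1.11 to 3.36). The median log2 ratio of these 6 genes was 0.98, but -0.67 among the 51 and 41 cells without C1q.

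Of 15 lectin and pattern receptor genes tested, 8 were at least 1.5-fold higher (14.9% of all genes were) and 0 lower, and 7 had intervals above 1. Their median log2 ratio was 0.66, beside -0.06 in the Cd209a-0 barcodes and 0.02 in the macrophages. It was -0.08 in the other dendritic cells and 0.48 in the mixed Ly6c2 monocyte gate described above. The differences between classes were not tested. Clec4n, which encodes the fungal receptor Dectin-2, had 10 UMIs in WT and 61 in Apoa1bp-/- cells (14.5 and 90.4 CPM), a ratio of 6.25 (3.18 to 13.7). Cd14, the lipopolysaccharide co-receptor gene, was at 81.1 and 193 CPM, a ratio of 2.38 (1.73 to 3.31). Clec10a, which binds galactose-type sugars, was at 308 and 488 CPM, a ratio of 1.58 (1.33 to 1.89). It was lower in the macrophages of the same library, with a ratio of 0.52. Its log2 ratio in the cells with Flt3 was -0.01. Mgl2, its close relative, was at 460 and 526 CPM, a ratio of 1.14 (0.980 to 1.33), while its ratio was 0.56 in the Cd209a-0 barcodes and 0.28 in the macrophages. Of the opsonic receptor genes, 5 of 11 tested were at least 1.5-fold higher (14.9% of all genes were) and 0 lower. Among them Fcer1g, the signalling chain of Fc receptors, was at 1929 and 2914 CPM, a ratio of 1.51 (1.41 to 1.62).

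Inflammatory cytokine and NF-kB feedback genes had 8 of 18 at least 1.5-fold higher (14.9% of all genes were) and 0 lower. Their median log2 ratio was 0.36, beside 0.02 in the Cd209a-0 barcodes and 0.12 in the macrophages. It was 0.40 in the other dendritic cells and 1.25 in the mixed Ly6c2 monocyte gate (18 WT and 88 Apoa1bp-/- barcodes), whose make-up differed between the libraries. Il1b stood at 360 CPM in WT and 809 CPM in Apoa1bp-/- cells, a ratio of 2.25 (1.93 to 2.62). It was detected in 24.0% and 44.9% of thinned cells, against 0.414% and 0.954% of fibroblasts. Tnf was at 20.3 and 91.9 CPM, a ratio of 4.53 (2.51 to 8.77). Among the cells with Flt3 its log2 ratio was 0.64 instead of 2.14. Nlrp3, the inflammasome sensor gene, had a ratio of 2.34 (1.21 to 4.75) and Il1r2, the decoy receptor gene for interleukin 1, 2.29 (1.26 to 4.32). Zfp36, which encodes a protein that destabilises cytokine messages, was slightly lower, at 1007 and 842 CPM, a ratio of 0.836 (0.747 to 0.935).

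Among the chemokines, Cxcl2, a neutrophil attractant, differed most, and its UMIs were unevenly spread. It had 37 UMIs in 2 WT cells and 427 UMIs in 21 Apoa1bp-/- cells, a ratio of 11.8 (8.44 to 17.0). Of the 37 WT UMIs, 36 lay in a single barcode that also held 467 UMIs of the neutrophil genes S100a8 and S100a9. Of the 21 Apoa1bp-/- cells, 18 held neither of those genes, and these 18 held 297 of the 427 Cxcl2 UMIs. Neutrophils gated in the same libraries held Cxcl2 at 6059 and 6939 CPM and numbered 43 and 170 barcodes, and their part in the result was not tested. Ccrl2, a chemokine-binding receptor gene, had 13 and 52 UMIs, a ratio of 4.10 (2.2 to 8.2). Lower were Ccl8, with 24 and 3 UMIs and a ratio of 0.128 (0.0247 to 0.421), and Ccl6, at 641 and 456 CPM, a ratio of 0.712 (0.614 to 0.825). Ccr2, the receptor that draws monocytes and their descendants into tissue, was at 470 and 494 CPM, a ratio of 1.05 (0.898 to 1.23). The list as a whole had 7 of 18 genes higher (14.9% of all genes were) and 4 lower (17.2% were), with a median log2 ratio of 0.20.

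Genes of alternative activation were lower in the Apoa1bp-/- cells. Of 10 tested, 6 were at least 1.5-fold lower (17.2% of all genes were) and 0 higher, with a median log2 ratio of -1.31, beside -1.15 in the macrophages and -0.23 in the Cd209a-0 barcodes. Retnla, a secreted gene induced by interleukin 4, had 407 UMIs in 18 WT cells (589 CPM) and 5 UMIs in 4 Apoa1bp-/- cells (7.41 CPM), a ratio of 0.0126 (0.00406 to 0.0296). It was also lower in the Cd209a-0 barcodes (2931 and 285 CPM) and the macrophages (1442 and 154 CPM). Among the cells with Flt3 its log2 ratio was -1.83 instead of -6.18. Fn1, which encodes fibronectin, was at 459 and 133 CPM, a ratio of 0.291 (0.227 to 0.369). Folr2, a gene of resident macrophages, had 14 and 2 UMIs, a ratio of 0.146 (0.0161 to 0.637). Cd163, the haemoglobin scavenger receptor gene, had 48 and 15 UMIs, a ratio of 0.320 (0.166 to 0.581), and Stab1, a scavenger receptor gene of the macrophage list, 15 and 4 UMIs, a ratio of 0.273 (0.0660 to 0.857). Since the summed fibroblast markers were also lower in the Apoa1bp-/- cells, the list was computed without cells holding at least 5 fibroblast or 5 neutrophil marker UMIs, and its median log2 ratio was then -0.75.

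Monocyte and macrophage genes differed in both directions. Of 14 monocyte genes tested, 5 were at least 1.5-fold higher (14.9% of all genes were) and 3 lower (17.2% were). Their median log2 ratio was -0.01. Ms4a4c, which is also interferon-induced, was at 171 and 488 CPM, a ratio of 2.86 (2.31 to 3.55), and was detected in 27.3% and 58.4% of thinned cells against 0.414% and 0.834% of fibroblasts. It also went from 69.0 to 253 CPM in the Cd209a-0 barcodes, 53.3 to 156 CPM in the macrophages and 33.1 to 97.8 CPM in the other dendritic cells. Ly6c2, the inflammatory monocyte marker, had 17 UMIs in 5 WT cells and 89 UMIs in 9 Apoa1bp-/- cells, a ratio of 5.36 (3.17 to 9.61). It also went from 20.1 to 114 CPM in the Cd209a-0 barcodes and 13.3 to 34.8 CPM in the macrophages. In the other dendritic cells it went from 56.4 to 2.76 CPM. S100a6, a calcium-binding protein gene, was at 4220 and 2886 CPM, a ratio of 0.684 (0.645 to 0.724), and Lyz2, the lysozyme gene, at 3325 and 3489 CPM, a ratio of 1.05 (0.990 to 1.11). Of 19 macrophage genes tested, 4 were higher and 7 lower, beside the same 14.9% and 17.2% of all genes, with a median of -0.16. Lgals3, which encodes galectin-3, was at 1444 and 2798 CPM, a ratio of 1.94 (1.79 to 2.09), and Apoe had a ratio of 1.19 (1.03 to 1.36).

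Most identity genes of the type 2 subset were within 1.5-fold between the genotypes. Of 13 tested, 3 were at least 1.5-fold higher (14.9% of all genes were) and 0 lower, with a median log2 ratio of 0.16. The 3 higher genes were Clec10a (1.58, 1.33 to 1.89), Ifi30, given with the class II genes, and Sirpa, each with an interval above 1. Flt3 had 52 and 39 UMIs, a ratio of 0.768 (0.494 to 1.19), Plbd1 a ratio of 1.13 (0.979 to 1.31), Itgax, which encodes CD11c, 1.11 (0.856 to 1.45), Klrd1 0.979 (0.823 to 1.16), Ckb 1.17 (0.983 to 1.40), Syngr2 0.985 (0.824 to 1.18) and Tnip3 0.795 (0.615 to 1.03). Each of the intervals from Flt3 to Tnip3 covered 1. Sirpa, the receptor for the signal CD47, was at 127 and 193 CPM, a ratio of 1.51 (1.15 to 2.01).

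Of 18 dendritic cell transcription factor genes tested, 2 were at least 1.5-fold higher and 3 lower, 2 had intervals above 1 and 5 below, and the median log2 ratio was -0.30. These shares were close to the 14.9% and 17.2% of all genes. Irf4, which directs the type 2 subset, had 30 UMIs in 25 WT cells and 13 UMIs in 9 Apoa1bp-/- cells, a ratio of 0.444 (0.212 to 0.877). Irf4 was also lower in the Cd209a-0 barcodes (26.4 and 9.42 CPM), the macrophages (8.38 and 2.14 CPM) and the other dendritic cells (13.6 and 4.13 CPM). Its log2 ratio was -0.14 among cells with Flt3 and -0.38 without cells holding Fcgr1 or Ly6c2, instead of -1.14. Notch2, a receptor needed by a splenic branch of the subset, was at 168 and 108 CPM, a ratio of 0.644 (0.474 to 0.871), and Rbpj, its nuclear partner, at 233 and 163 CPM, a ratio of 0.700 (0.544 to 0.897). Zeb2, a repressor gene of the type 2 and monocyte lineages, had a ratio of 0.685 (0.560 to 0.837), and Batf3, which the type 1 subset needs, 0.661 (0.456 to 0.952). Higher was Cebpb, an inflammatory regulator, at 182 and 331 CPM, a ratio of 1.81 (1.45 to 2.27). Spi1, which encodes the lineage factor PU.1, was at 310 and 418 CPM, a ratio of 1.35 (1.13 to 1.62), and Irf8 had a ratio of 1.44 (0.926 to 2.26). Zbtb46 (0.862, 0.415 to 1.77), Bcl11a (0.717, 0.471 to 1.08) and Cbfa2t3 (0.857, 0.711 to 1.03) had intervals covering 1. The list's median was -0.52 in the Cd209a-0 barcodes, -0.29 in the macrophages and -0.24 in the other dendritic cells.

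Receptor genes that set growth and interferon responses were also compared. Of 15 tested, 4 were at least 1.5-fold higher (14.9% of all genes were) and 2 lower (17.2% were). The median log2 ratio was 0.30, with 3 counting intervals above 1 and 0 below. Ifnar2, a chain of the type I interferon receptor, was at 76.7 and 124 CPM, a ratio of 1.62 (1.14 to 2.33), and its partner Ifnar1 had a ratio of 1.26 (0.787 to 2.02). The log2 ratio of Ifnar2 turned from 0.70 to -0.14 when the cells were thinned to 2000 UMIs. Ifngr1, the ligand-binding chain of the interferon gamma receptor, was at 220 and 333 CPM, a ratio of 1.52 (1.23 to 1.87). Csf1r, the macrophage growth factor receptor gene, had a ratio of 1.04 (0.732 to 1.47), and the granulocyte-macrophage receptor genes Csf2ra and Csf2rb 1.05 (0.825 to 1.35) and 1.23 (0.895 to 1.71). Kit had 18 and 11 UMIs, a ratio of 0.626 (0.267 to 1.40).

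AIBP is known for its part in cholesterol efflux. Of 13 genes of cholesterol synthesis and uptake tested, 8 were at least 1.5-fold lower (17.2% of all genes were) and 1 higher, but only 3 had counting intervals below 1, with a median log2 ratio of -0.65, beside -0.44 in the Cd209a-0 barcodes and -0.35 in the macrophages. Fdps, an enzyme of the isoprenoid steps, had 53 and 45 UMIs, a ratio of 0.869 (0.571 to 1.32). Among the 51 and 41 cells without C1q the list's median turned to 0.72, and without cells holding 5 fibroblast or neutrophil marker UMIs it was -0.02, so the size and sign of the median rested on which cells were counted. Targets of the sterol sensor LXR and of cholesterol efflux had 2 of 14 genes higher and 2 lower and a median of 0.08. Among them the fatty acid enzyme genes Fasn and Scd2 had ratios of 0.455 (0.210 to 0.929) and 0.483 (0.288 to 0.791). Genes of NAD(P)HX repair and NAD synthesis had 1 of 9 higher and 1, Naxe itself, lower, with a median of 0.12.

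Cell cycle genes had 10 of 27 at least 1.5-fold lower (17.2% of all genes were) and 1 higher (14.9% were). Their median log2 ratio was -0.38, beside 0.40 in the Cd209a-0 barcodes and -0.10 in the macrophages. It was -0.53 in the mixed Ly6c2 monocyte gate and 0.80 in the other dendritic cells. Nusap1, a spindle protein gene, had 38 UMIs in 12 WT cells and 4 UMIs in 4 Apoa1bp-/- cells, a ratio of 0.108 (0.0279 to 0.299), and Ube2c, which drives exit from mitosis, 46 and 12 UMIs, a ratio of 0.267 (0.129 to 0.512). Without cells holding Mki67 or Top2a the log2 ratio of Ube2c turned to 0.81. Tubb5 and Hmgb2, the most abundant genes of the list, had ratios of 0.847 (0.744 to 0.963) and 0.773 (0.661 to 0.903). A UMI of Mki67 or Top2a was held by 18 WT cells (13.2%) and 11 Apoa1bp-/- cells (11.5%), so the lower sums rested on few cells. The list's median was 0.47 among cells without C1q and 0.08 when every barcode was thinned before the rule.

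Several of the genes with the largest differences lay outside these lists. Higher were Cd72, an inhibitory lectin of B cells and myeloid cells, at 27.5 and 187 CPM, a ratio of 6.79 (4.17 to 11.7), and Hilpda, a lipid droplet gene induced by hypoxia, at 8.68 and 75.6 CPM, a ratio of 8.70 (3.74 to 24.8). Sirpb1a, a signal-regulatory protein gene, had a ratio of 4.68 (2.60 to 9.04) and AA467197 one of 5.35 (3.21 to 9.41). Asgr2, a subunit of the liver asialoglycoprotein receptor, had 1 UMI in WT and 29 in 5 Apoa1bp-/- cells, a ratio of 29.7 (4.92 to 1213), with 51.7% of them in 1 cell. Cd72 was detected in 5.79% and 27.0% of thinned cells, against 0.414% and 0.834% of fibroblasts. Its ratio was 2.64 in the Cd209a-0 barcodes and 1.79 in the macrophages. Hilpda had a log2 ratio of -0.54 in the cells with Flt3 and 3.02 overall.

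Several of the lower genes were abundant. Lmna, which encodes lamins A and C, stood at 360 CPM in WT and 102 CPM in Apoa1bp-/- cells, a ratio of 0.284 (0.214 to 0.372), though its log2 ratio was -0.16 among cells with Flt3. Ahnak, a giant scaffold protein gene, was at 967 and 425 CPM, a ratio of 0.440 (0.382 to 0.506), with UMIs in 123 of 136 and 74 of 96 cells. Tppp3, a tubulin-binding protein gene, was at 145 and 47.4 CPM, a ratio of 0.328 (0.213 to 0.492). Ahnak and Tppp3 were also lower in the macrophages, at 0.466 and 0.356. Fibroblast markers, summed to 2754 CPM in WT and 290 CPM in Apoa1bp-/- cells, were lower with these genes. In WT, thinned fibroblasts held Lmna in 47.5%, Ahnak in 83.1% and Ecm1 in 44.5%, against 28.1%, 71.9% and 8.26% of the Cd209a dendritic cells. Without cells holding at least 5 fibroblast or neutrophil marker UMIs, the log2 ratios were -1.32 for Lmna, -1.22 for Ahnak, -1.46 for Tppp3 and -1.66 for Ecm1. Ecm1 had a ratio of 0.261 (0.126 to 0.501), Mfsd14b 0.234 (0.0938 to 0.514), the transfer RNA exporter gene Xpot 0.164 (0.0414 to 0.474) and the histone gene H2ac8 0.401 (0.311 to 0.515). Xpot turned to a log2 ratio of 0.23 among cells with Flt3. Spink2 had 17 and 0 UMIs, at least 5.53-fold lower against a floor of 3 counts. Fry had a ratio of 0.171 (0.0517 to 0.444), but 73.3% of its WT UMIs lay in 1 cell and its log2 ratio was 0.49 without C1q-positive cells.

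The cells were not uniform within a genotype. Mgl2 had a UMI in 62 of 136 WT (45.6%) and 44 of 96 Apoa1bp-/- cells (45.8%). Cells without it held more Klrd1 (627 against 192 CPM in WT, 490 against 284 CPM in Apoa1bp-/-) and more Flt3 (112 against 43.2 CPM, and 69.1 against 46.8 CPM). They also held more Plac8, a monocyte and plasmacytoid gene singled out after its values were seen (387 against 154 CPM in WT, 907 against 158 CPM in Apoa1bp-/-). The split was thus similar in size in both libraries, and Mgl2-positive cells were the lower in Flt3 in each. These Flt3 levels rest on 52 UMIs over all WT cells and 39 over all Apoa1bp-/- cells. No interval was computed for the differences between split cells, so counting error may cover them. Flt3 and Fcgr1 were found together in 2 WT and 12 Apoa1bp-/- cells.

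The remaining lists had medians between -0.40 and 0.28, beside -0.02 over all genes tested, of which 14.9% were higher and 17.2% lower. Immediate early genes had 2 of 23 higher and 2 lower (median log2 ratio 0.12), with Ier3 at 2.28 (1.82 to 2.88) and Btg2 at 1.76 (1.49 to 2.09). Heat shock chaperones had 0 higher and 2 of 14 lower (median -0.15), with Hspa1b at 0.561 (0.471 to 0.667). Adhesion and migration genes had 2 of 21 higher and 3 lower (median 0.11), with Anxa1 at 1.85 (1.49 to 2.30) and Cd44 at 0.641 (0.508 to 0.807). Mmp12, a macrophage elastase gene, was at 33.3 and 122 CPM, a ratio of 3.65 (2.28 to 6.08), but at 1201 and 588 CPM in the Cd209a-0 barcodes, and its log2 ratio was -0.13 among cells with Flt3. Glycolysis and hypoxia genes had 2 of 19 higher and 1 lower (median 0.24), nuclear respiratory chain genes 1 and 1 of 40 (median -0.10), and mitochondrially encoded genes 3 and 1 of 13 (median 0.28). Type 1 dendritic cell genes had 1 higher and 2 of 8 lower (median 0.10), with Cd24a at 0.506 (0.346 to 0.731), mature dendritic cell genes 3 higher and 4 of 13 lower (median -0.06), and plasmacytoid genes 0 higher and 1 of 3 lower (median -0.40).

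**Figure D5:**
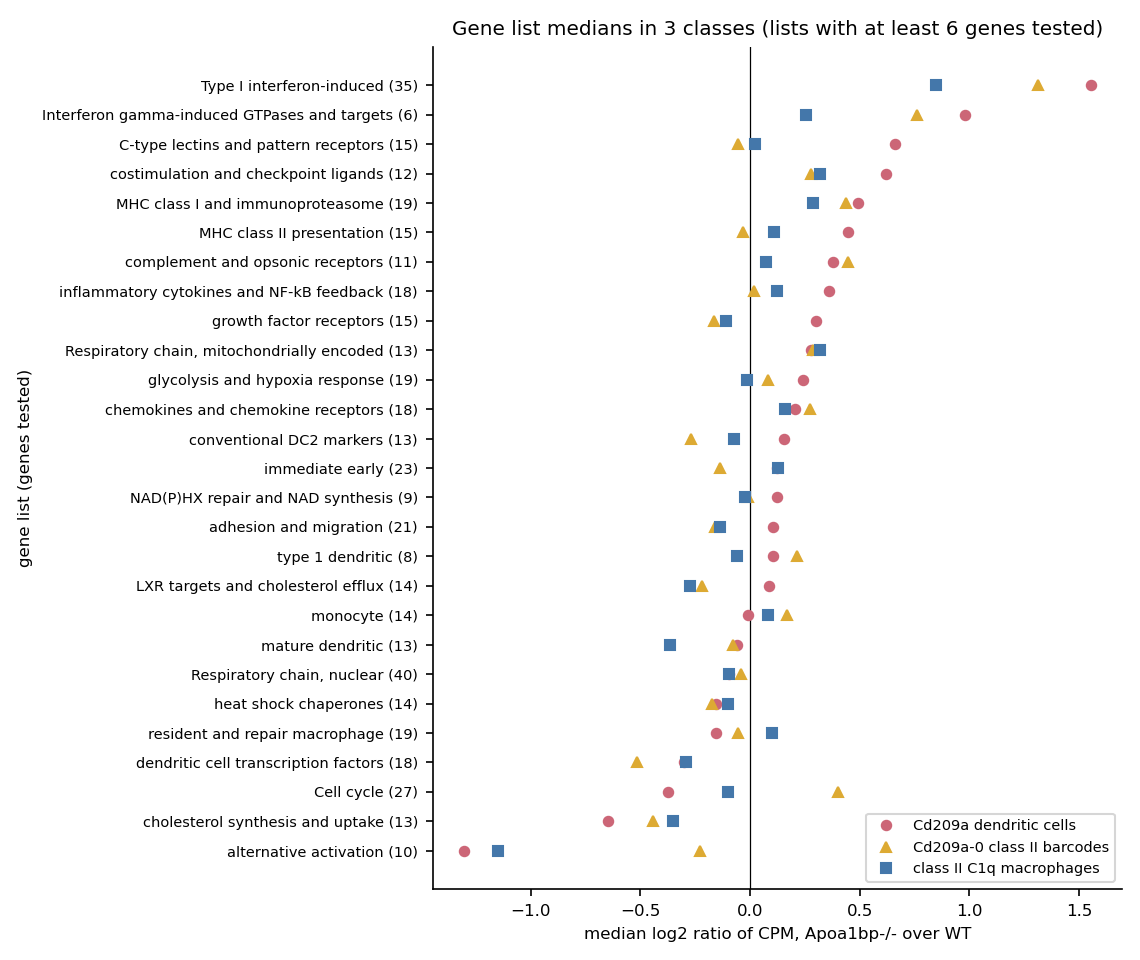
Median log2 ratio of CPM (Apoa1bp-/- over WT) of each list with at least 6 genes tested, in the Cd209a dendritic cells, the Cd209a-0 class II barcodes and the class II C1q macrophages. In the Cd209a dendritic cells the interferon list is highest at 1.55 and the alternative activation list lowest at -1.31.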

How the data were processed

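Single-cell libraries of 16-base barcodes and 10-base UMIs were deposited as 1 matrix of raw UMI counts per gene and barcode for each genotype, not normalized, for 32574 genes. They were made with Cell Ranger, version 5.0.0 per the file headers and 2.1.1 per the submitters' processing notes, a difference that could not be settled. Neither label nor header names a genome build or annotation (not given in the sources used here). Cells and the 28 gene lists were chosen with earlier results of these data known.

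From the counts, UMIs were summed per library and class and scaled to CPM. Ratios (Apoa1bp-/- over WT) have exact conditional intervals, CPM exact Poisson and shares exact Clopper-Pearson intervals, at 95%. A prior count of 0.5 entered the log2 ratios. Genes of at least 20 CPM in either library, without the genes of the rule, were counted as higher or lower at 1.5-fold; against other barcodes, genes of at least 50 CPM in both libraries. Cells were thinned to 2000 UMIs, without the 15 WT and 7 Apoa1bp-/- cells below that depth. No p-value was computed, since each genotype had 1 library. The scripts were tested on simulated data.

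Named genes were the 12 highest and 12 lowest by the interval bound nearest a ratio of 1, the 20 highest against other barcodes, and up to 4 by ratio and 2 by UMIs of each list. The ranking skipped genes that another class of that library held at 10 times the level (7 higher and 58 lower genes), because their UMIs may be free RNA, and 3 lower genes by kind (ribosomal, mitochondrial, haemoglobin, sex-linked or clone-named). Some named genes are not reported here. Of the 114 genes with a printed ratio, 19 overlap exons of another gene in GENCODE vM21, used for names only, and counting by strand is not stated. Close copies (class I genes, the Ifi2 and Ifit families, Ly6c1 and Ly6c2, Mgl2 and Clec10a, Cd209a and Cd209d, the Klrb1 genes) may share reads. Doublets called by Scrublet were kept and left out as an alternative. Further alternatives changed each threshold, the depth, the filter and the prior count. Another 3 were added after seeing the data, namely leaving out each gene's highest barcode, cells with at least 5 fibroblast or neutrophil marker UMIs, and cells with Fcgr1 or Ly6c2. Python 3.11.15, numpy 2.4.6, scipy 1.17.1, pandas 2.3.3, scanpy 1.11.5, anndata 0.12.19 and matplotlib 3.10.9 were used.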

Additional observations from a re-analysis of the deposited data

Results flagged for a closer look

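Of 114 genes compared between classes, 4 differed by at least 1.5-fold one way in the Cd209a dendritic cells and by at least 1.5-fold the other way in the class II C1q macrophages or the Cd209a-0 class II barcodes, with both counting intervals clear of 1. The differences were seen in 1 library per genotype and were not tested. Clec10a had a ratio of 1.58 in the Cd209a dendritic cells and 0.517 (0.470 to 0.569) in the class II C1q macrophages. Mmp12 had a ratio of 3.65 (2.28 to 6.08) against 0.482 in the macrophages and 0.489 in the Cd209a-0 class II barcodes. Tnf had a ratio of 4.53 (2.51 to 8.77) against 0.635 (0.461 to 0.873) in the Cd209a-0 class II barcodes. Ube2c had a ratio of 0.267 (0.129 to 0.512) against 1.82 (1.5 to 2.21) there.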

How the results depend on the processing

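No paired analysis was possible because each genotype had 1 library. The alternatives were 21 settings and a change of background for the 20 leading genes. In each setting the level filter was applied again to the cells counted. List medians and counts of genes can therefore cover other genes than those reported. In all, 2257 values stayed within set bounds of the reported value, 263 moved further, including the 20 with changed background, and 11 reversed. For genes and shares the bounds were the reported counting interval. For a list they were the medians of its genes' interval bounds, and for counts of genes a factor of 1.5. Such bounds can be wide, so staying within them does not mean closeness. An alternative activation median of -0.68 instead of -1.31 counted as staying. A reversal was counted only where the reported value was at least 1.5-fold from no change, so smaller values could change sign uncounted. The cell cycle median ran from -1.33 to 0.47, and the log2 ratio of Flt3 from -0.68 to 1.23. The counts of genes higher and genes lower were 1775 and 2400 with a filter of 5 CPM, 3132 and 4003 with no filter beyond 1 UMI, and 1665 and 1676 when every barcode was thinned to 2000 UMIs before the rule. With the cells thinned after the rule, 1562 genes were higher and the log2 ratio of Ifnar2 was -0.14. Among cells with Flt3, 1950 genes were higher and the interferon median was 2.88, while the log2 ratios were -0.0068 for Clec10a, 0.22 for Folr2, -0.54 for Hilpda, -0.036 for Ifi30, -0.13 for Mmp12 and 0.23 for Xpot. Without cells holding Mki67 or Top2a, Ube2c was at 0.81. Without any C1q UMI, 1394 genes were higher, Fry was at 0.49, the interferon gamma median at -0.67 and the cholesterol synthesis median at 0.72. The smaller sets and lower filters hold fewer UMIs per gene; the cause was not tested. The interferon median stayed above 0 in every alternative run (0.86 to 2.88), as did class II (0.19 to 0.53) and class I (0.31 to 0.63), and alternative activation below 0 (-1.76 to -0.68). With 232 cells in all, genes of few UMIs in few cells carry wide intervals, and no interval covers the spread between mice. Of the genes tested, 52 had over 50% of their UMIs in 1 cell in either library. Libraries with few UMIs of a gene were left out of that count, so more genes may rest on 1 cell.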
